A study of Homo sapiens with 6 samples.

Results

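The ephrins and Eph receptors examined here are 10 genes taken by symbol from the 17631 genes with a value in each library: the ligand genes EFNA1, EFNA3, EFNA4, EFNA5, EFNB1 and EFNB2, and the receptor genes EPHA2, EPHB2, EPHB3 and EPHB4. RNA was sequenced from MDA-MB-231, a human line of triple-negative breast cancer grown in culture, in 6 libraries. Of these, 3 came from cells given vehicle and 3 from cells given 30 µM PDBAG1 for 24 h, and the labels name no other agent or genetic change. PDBAG1 is a synthetic peptide in which a cell-penetrating sequence is joined to a stretch of the metabolic enzyme GPD1, and the comparison asked how the transcripts of these cells responded to it. The libraries carry numbers but no statement that they came from separate cultures, so the p values measure the spread between libraries, which may be technical.

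Eph receptors form the largest family of receptor tyrosine kinases, and their ligands, the ephrins, are themselves bound to the cell surface, so that signalling needs contact between cells. Ephrin-A ligands are held by a lipid anchor and mostly bind EphA receptors, whereas ephrin-B ligands span the membrane and mostly bind EphB receptors. A bound receptor signals forward into its own cell through adaptor proteins and the cytoskeleton, and the ephrin can signal in reverse into the cell that carries it. In epithelial tumours the system is known for cell repulsion, boundary formation, invasion and vessel growth, and EphA2 without its ligand is known to favour migration through a phosphorylation by AKT or RSK kinases.

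The values are TPM, the share of each transcript scaled to a common sum, which also corrects for gene length, so levels can be compared between genes. TPM keeps no depth, and the precision therefore rests on 3 libraries per group. Between 12392 and 12611 genes per library reached 1 TPM. The 12582 genes at 1 TPM or more in at least 3 libraries were tested together on the log2(TPM + 1) scale with limma, with p values adjusted by the Benjamini-Hochberg method over all of them. Fold changes on this scale understate those of low genes. The cell line's mesenchymal markers VIM (4174 to 5942 TPM) and CD44 were high and CDH1 was under 1 TPM in every library, although SPARC was also under 1 TPM. The summed level of the 7 cell line markers was 5154 to 5323 TPM with vehicle and 7059 to 7191 TPM with PDBAG1, and its part in the results was not tested. Most of this sum was VIM, and the markers did not all move together. Besides VIM, CD44 (313 to 331 and 463 to 499 TPM) rose without overlap. So did FN1 (49.4 to 55.5 and 86.7 to 97.5 TPM) and PLAUR (148 to 166 and 281 to 299 TPM). AXL went from 375 to 394 TPM with vehicle to 309.1 to 341 TPM with PDBAG1, and EGFR and SPARC overlapped between the groups. Of 4 endothelial markers, whose summed level was 4.18 to 4.45 TPM with vehicle and 8.52 to 9.65 TPM with PDBAG1, PECAM1 gave 3.78 to 4.08 and 7.87 to 9.15 TPM, while CDH5, VWF and TEK stayed under 1 TPM in every library. The luminal sum did not separate the groups (35.4 to 38.6 and 34.9 to 39.5 TPM). Of its genes, ERBB2 (23.6 to 25.4 TPM), EPCAM, GATA3 and ESR1 were above 1 TPM in every library, and CDH1, PGR and FOXA1 were under it. The 2 leukocyte markers with a value and the 3 adipocyte markers summed to at most 3.46 and 1.09 TPM. In bulk RNA, fewer cells of a type and less RNA per cell cannot be told apart.

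Of the 10 genes, 9 passed the filter on low values and were tested. With PDBAG1, 2 ligands of class A, EFNA1 and EFNA3, rose at an adjusted p under 0.05, as did the receptor EPHB2 to a small extent, and no member fell. This is 3 of 9 higher against a background of 21.7% of all genes tested, and 0 of 9 lower against 15.9%. At the study's fold limit of 1.5, EFNA1 and EFNA3 remained, 2 of 9 against 2.86% of all genes. In 4 members every PDBAG1 library lay above every vehicle library (background 27.2%), and in 1, EPHA2, every PDBAG1 library lay below (background 20.2%). The members were chosen with earlier results of these data known, so these counts beside the background are a description and carry no test. The median log2 fold change was 0.20 for the 6 ligands, 0.03 for the 3 receptors tested and 0.03 for all genes tested.

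**Figure D1:**
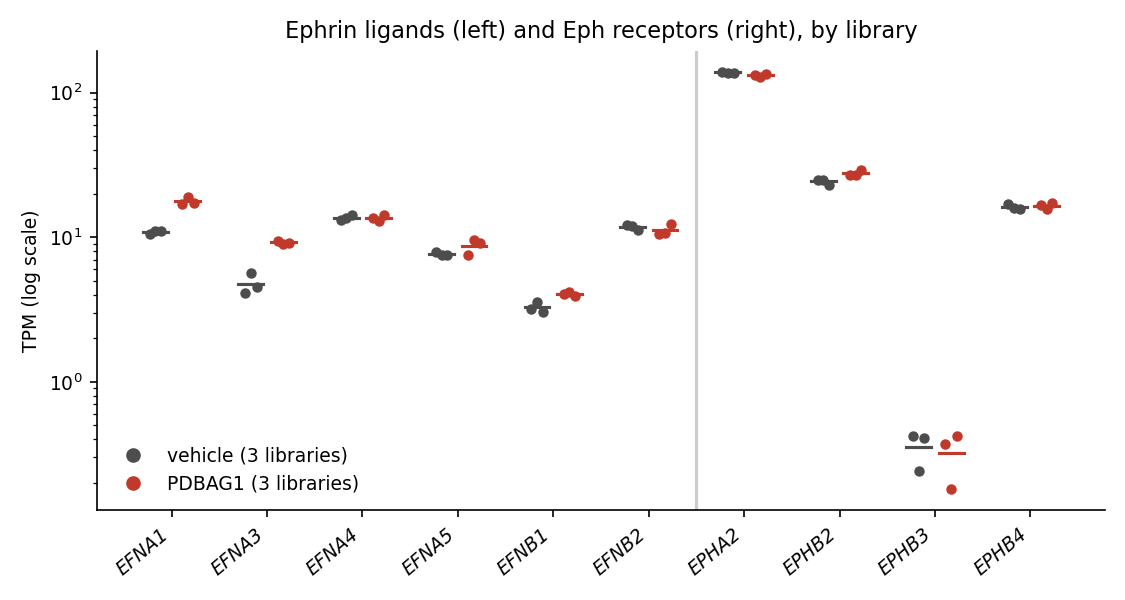
TPM of the 10 genes on a logarithmic axis, with 1 point per library and a bar at the mean of the 3 libraries of each group, ligands to the left of the grey line and receptors to the right. The EFNA1 and EFNA3 points of the PDBAG1 group sit clear above those of vehicle, and EPHA2 is the most abundant gene in every library.

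EFNA1 (ENSG00000169242) encodes ephrin-A1, the preferred ligand of EphA2, first described as a product that tumour necrosis factor induces in endothelial cells. It was at 10.52, 11.06 and 10.98 TPM in the vehicle libraries and at 17.09, 18.84 and 17.38 TPM with PDBAG1. The groups lie more than 6 TPM apart, with little spread in either. The means were 10.9 ± 0.291 and 17.8 ± 0.938 TPM (SD over 3 libraries). The log2 fold change, 0.66 with a standard error of 0.07 (adjusted p = 8.23e-06 by limma), was higher than that of 97.9% of the genes tested. Its 95% interval, 0.51 to 0.81, extends below the 1.5-fold limit.

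EFNA3 (ENSG00000143590), which encodes ephrin-A3, a ligand of several EphA receptors, had the largest log2 fold change of the 9 members tested. Its vehicle libraries were at 4.09, 5.63 and 4.50 TPM and its PDBAG1 libraries at 9.43, 9.04 and 9.14 TPM. Vehicle replicate 2 was the highest of its group and still well below all treated libraries. The mean went from 4.74 ± 0.798 to 9.20 ± 0.203 TPM (SD over 3 libraries), which is 0.84 on the log2 scale with a standard error of 0.10 (adjusted p = 2.53e-05 by limma). On the TPM scale the ratio of the means was 1.94 for EFNA3 and 1.64 for EFNA1.

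EFNA4 (ENSG00000243364), the gene of ephrin-A4, lies near both in the genome, next to EFNA3, and gave a different reading. It was at 13.17, 13.59 and 14.15 TPM in the vehicle libraries and, with PDBAG1, at 13.59, 12.91 and 14.27 TPM, and the groups overlap throughout. The log2 fold change was -0.01 with a 95% interval of -0.16 to 0.15, which leaves out a change of the size seen for EFNA1 or EFNA3. Per 100 TPM of EFNA4, the vehicle libraries held 77.6 to 81.4 TPM of EFNA1 and the PDBAG1 libraries 121.8 to 145.9. For EFNA3 the same measure was 31.1 to 41.4 with vehicle and 64.1 to 70.0 with PDBAG1. In neither measure did the groups overlap. These comparisons with EFNA4 were chosen after the values were seen and carry no test.

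The 3 genes form a cluster on chromosome 1 of GRCh38 (GENCODE v44), all on the plus strand and in the order EFNA4 (155063737 to 155069553), EFNA3 (155078837 to 155087538) and EFNA1 (155127876 to 155134899). The gap from EFNA4 to EFNA3 is 9284 bases and that from EFNA3 to EFNA1 is 40338 bases. An annotated readthrough gene, EFNA4-EFNA3, has no value of its own in the files and overlaps 5806 bases of EFNA4 and 7971 of EFNA3, so the division of shared reads between them is uncertain. The promoter windows of the cluster are shown because its genes differ in response although they lie close together. Each is the 250 bases before the RefSeq start site (GRCh38.p14), 5′ to 3′ on the gene's strand, with matches to GCGTG on either strand in capitals. They lie at chr1:155127626-155127875 for EFNA1, at chr1:155078587-155078836 for EFNA3 and at chr1:155063490-155063739 for EFNA4.
EFNA1: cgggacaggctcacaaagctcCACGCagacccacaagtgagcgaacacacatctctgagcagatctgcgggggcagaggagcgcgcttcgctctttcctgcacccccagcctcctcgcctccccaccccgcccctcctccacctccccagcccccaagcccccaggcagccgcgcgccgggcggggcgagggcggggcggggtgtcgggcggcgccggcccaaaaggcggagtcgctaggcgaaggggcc
EFNA3: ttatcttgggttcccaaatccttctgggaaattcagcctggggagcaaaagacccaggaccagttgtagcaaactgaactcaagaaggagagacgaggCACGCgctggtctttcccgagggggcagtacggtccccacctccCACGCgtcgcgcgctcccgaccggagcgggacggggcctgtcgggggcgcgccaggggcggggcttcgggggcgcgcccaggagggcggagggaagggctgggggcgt
EFNA4: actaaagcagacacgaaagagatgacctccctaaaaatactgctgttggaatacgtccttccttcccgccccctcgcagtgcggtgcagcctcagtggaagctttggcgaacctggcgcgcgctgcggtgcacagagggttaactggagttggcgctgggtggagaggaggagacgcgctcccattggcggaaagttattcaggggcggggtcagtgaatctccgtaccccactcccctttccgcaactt

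The core to which hypoxia-inducible factors are known to bind was searched on both strands in 2 forms, with ACGTG as the first form and GCGTG as the second. The AP-1 element (TGANTCA) and the NF-kB consensus were searched in the same way, and the motifs may overlap each other. In the windows above, the first core form, the AP-1 element and the NF-kB consensus had no match. The second core form, which reads as CACGC when it lies on the minus strand, occurred 1 time for EFNA1 and 2 times for EFNA3, and had no match for EFNA4. It is common, since 32.2% of the 35116 promoter windows in the same table hold it, while the first form is found in 18.5%, the AP-1 element in 6.6% and the NF-kB consensus in 5.2%. All 10 genes had a window, and the second form also occurred for EFNA5, EFNB1, EFNB2, EPHA2, EPHB2 and EPHB4, and had no match for EPHB3. The windows of the cluster held 24 CpG for EFNA1, 23 for EFNA3 and 17 for EFNA4, against a median of 11 over all windows. Fewer CpG were found in 76.3%, 74.2% and 61.0% of all windows, so none of the 3 was extreme.

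Around the cluster, 11 other genes within 100 kb could be tested. The genes nearest to EFNA1 and EFNA4 on the outer sides did not pass the test. SLC50A1, a sugar transporter gene, had a log2 fold change of 0.06. It starts at 155135344, just past the end of EFNA1 at 155134899, and their start sites lie 7.5 kb apart. ADAM15, a metalloprotease gene upstream of EFNA4, had a log2 fold change of 0.04. DPM3, KRTCAP2, MTX1 and DCST1 did not pass either, with log2 fold changes from -0.13 to 0.18. MUC1, the gene of a membrane mucin, rose from 5.11 ± 0.243 to 8.32 ± 0.296 TPM (SD over 3 libraries), or by 0.61 on the log2 scale, and THBS3 rose by 0.52 and ZBTB7B by 0.30 on the log2 scale. FLAD1 fell by 0.45 and CKS1B, a cell cycle gene, by 0.25. The window thus held 3 other genes that rose, 2 that fell and 6 that did not pass. Over all genes tested, 21.7% rose and 15.9% fell at the same threshold, so these counts are near the background.

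EFNA5, the gene of ephrin-A5 (chromosome 5), was at 7.96, 7.51 and 7.57 TPM in the vehicle libraries and, with PDBAG1, at 7.57, 9.50 and 9.07 TPM. PDBAG1 replicate 1 lay within the vehicle range and the other two above it. The log2 fold change was 0.16 (adjusted p = 0.190 by limma), and without PDBAG1 replicate 1 it was 0.24 and passed the threshold (adjusted p = 0.0418).

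Of the ephrin-B ligands, EFNB1, the gene of ephrin-B1 on the X chromosome, was at 3.21, 3.58 and 3.06 TPM in the vehicle libraries and, with PDBAG1, at 4.05, 4.17 and 3.91 TPM. Every treated library was above every vehicle library, but the log2 fold change of 0.24 (standard error 0.10) missed the threshold (adjusted p = 0.0652 by limma). EFNB2 (chromosome 13) encodes ephrin-B2, the ligand known from arterial vessels, and was at 12.20, 12.01 and 11.17 TPM in the vehicle libraries and, with PDBAG1, at 10.50, 10.69 and 12.26 TPM. PDBAG1 replicate 3 was the highest of the 6 and the other treated libraries the lowest, so the groups overlap. Its log2 fold change was -0.08 (adjusted p = 0.480 by limma, 95% interval -0.25 to 0.10).

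Among the receptors, EPHA2 (ENSG00000142627, chromosome 1, 16124337 to 16156069, minus strand) was by far the most abundant. It was at 139.74, 136.41 and 137.81 TPM in the vehicle libraries and, with PDBAG1, at 131.93, 128.71 and 134.75 TPM. The treated libraries all lay below the vehicle libraries, by a small margin. The log2 fold change was -0.07 (SE 0.04, 95% interval -0.15 to 0.02, adjusted p = 0.217 by limma), and it passed the threshold under median-of-ratios scaling alone, at -0.11 (adjusted p = 0.0443). An antisense gene, EPHA2-AS1, overlaps 894 bases of EPHA2, and its reads could not be told from those of EPHA2 unless the counting used strand, which is not given in the sources used here. The same holds for genes on the opposite strand that overlap EFNB2, EPHB2 and EPHB4.

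EPHB2 (ENSG00000133216, chromosome 1, 22710839 to 22921500, plus strand), a receptor known for positioning cells in the intestinal crypt, was at 25.06, 25.01 and 22.99 TPM in the vehicle libraries and, with PDBAG1, at 26.83, 27.08 and 29.31 TPM. Each treated library exceeded each vehicle library, and PDBAG1 replicate 3 was the highest. The mean rose from 24.4 ± 1.18 to 27.7 ± 1.37 TPM (SD over 3 libraries), which is 0.18 on the log2 scale with a standard error of 0.06 (adjusted p = 0.0360 by limma). This call was the weakest of the 3. It was lost without vehicle replicate 2 (0.20, adjusted p = 0.0582), without vehicle replicate 3 (0.14, adjusted p = 0.169), without PDBAG1 replicate 2 (0.20, adjusted p = 0.0694) and without PDBAG1 replicate 3 (0.14, adjusted p = 0.122), and also when no expression filter was used (adjusted p = 0.0577).

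EPHB4 (chromosome 7), the receptor of ephrin-B2 known from veins, was at 16.85, 15.86 and 15.71 TPM in the vehicle libraries and, with PDBAG1, at 16.59, 15.55 and 17.32 TPM, with the groups fully mixed. Its log2 fold change was 0.03 (95% interval -0.12 to 0.18, adjusted p = 0.775 by limma) and turned to -0.01 or -0.05 under the 2 other scalings. EPHB3 (chromosome 3) was the member that did not pass the filter. It was at 0.42, 0.24 and 0.41 TPM in the vehicle libraries and, with PDBAG1, at 0.37, 0.18 and 0.42 TPM, with overlapping groups, and it was not called when all genes were tested without a filter.

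**Figure D2:**
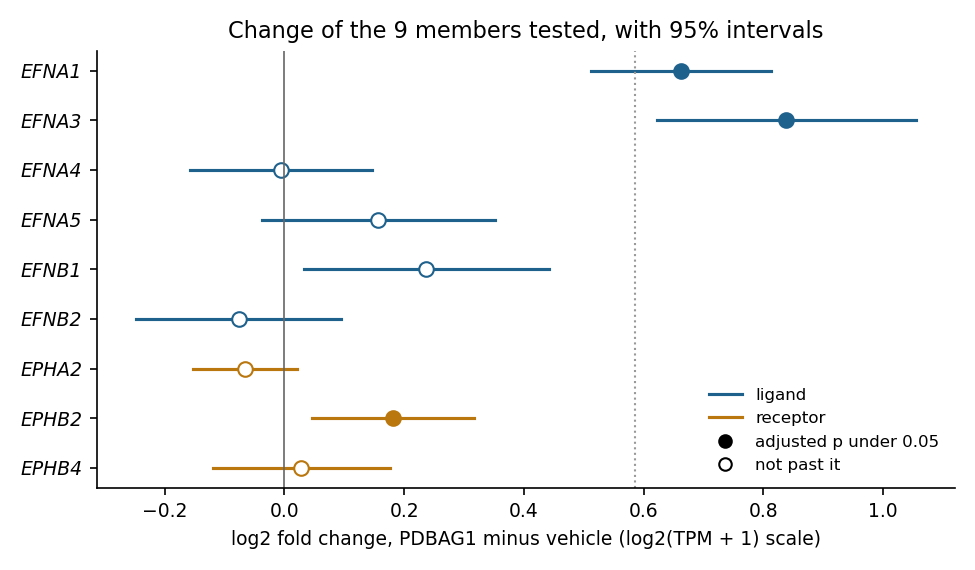
Log2 fold change of PDBAG1 over vehicle (horizontal axis, log2(TPM + 1) scale) with 95% intervals for the 9 members tested, ligands in blue and receptors in orange, filled where the adjusted p was under 0.05; the dotted line marks 1.5-fold. EFNA1 (0.66) and EFNA3 (0.84) lie past that line, and the intervals of EFNA4, EFNA5, EFNB2, EPHA2 and EPHB4 include 0.

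The order of the levels changed for EFNA1 and little else. With vehicle the genes ranked from EPHA2 (138 TPM) through EPHB2 (24.4), EPHB4 (16.1), EFNA4 (13.6), EFNB2 (11.8), EFNA1 (10.9), EFNA5 (7.68), EFNA3 (4.74) and EFNB1 (3.28) to EPHB3 (0.357 TPM), and the 3 libraries of each gene did not overlap those of the next. With PDBAG1, EFNA1 moved from place 6 to place 3 and EFNA3 from place 8 to place 7. There the libraries of EFNA1 overlapped those of EPHB4 (15.55 to 17.32 TPM), and those of EFNA3 overlapped those of EFNA5 (7.57 to 9.50 TPM), so neither of these neighbours can be ordered.

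Ligands and receptors were then set against each other. The 6 ligands summed to 51.15, 53.38 and 51.43 TPM in the vehicle libraries and, with PDBAG1, to 62.2, 65.2 and 66.0 TPM, with no overlap, a ratio of the means of 1.24. The 4 receptors summed to 182.1, 177.5 and 176.9 TPM in the vehicle libraries and, with PDBAG1, to 175.7, 171.5 and 181.8 TPM, where the groups overlap and the ratio of the means was 0.986. Per 100 TPM of receptor there were 28.1 to 30.1 TPM of ligand with vehicle and 35.4 to 38.0 TPM with PDBAG1. The sums are a description over chosen genes and carry no test.

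The gain lay in class A. Class A ligands summed to 36.9 ± 1.06 TPM in the vehicle group and 49.3 ± 1.40 TPM in the PDBAG1 group (SD over 3 libraries), whereas class B ligands were at 15.1 ± 0.739 and 15.2 ± 0.860 TPM. EFNA1 added 6.92 TPM and EFNA3 4.46 TPM to the mean ligand sum, and the share of EFNA1 in that sum went from 20.6% to 21.4% with vehicle to 26.3% to 28.9% with PDBAG1. EFNA4 was the leading ligand with vehicle (25.5% to 27.5%) and held 19.8% to 21.8% with PDBAG1, with its own level overlapping between the groups. On the receptor side EPHA2 held 76.8% to 77.9% of the sum with vehicle and 74.1% to 75.1% with PDBAG1.

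**Figure D3:**
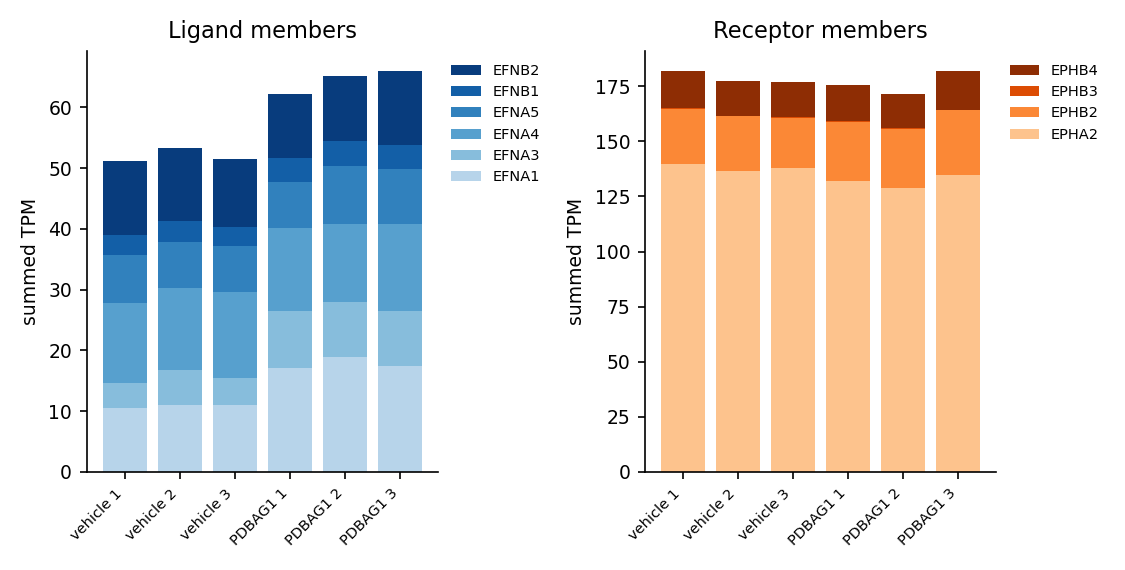
Summed TPM of the 6 ligand genes (left) and the 4 receptor genes (right) in each of the 6 libraries, stacked by gene from 0. The ligand stacks of the PDBAG1 libraries (62.2 to 66.0 TPM) exceed those of vehicle (51.2 to 53.4 TPM) through EFNA1 and EFNA3, and the receptor stacks overlap.

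A test of the difference within each library was made for 3 ligand and receptor pairs of known high affinity. EFNA1 minus EPHA2 on the log2(TPM + 1) scale rose by 0.73, from -3.61 to -3.51 with vehicle to -2.89 to -2.71 with PDBAG1, in a two-sided exact permutation test with p = 0.1, the smallest that 3 libraries against 3 allow (0.15 adjusted over the 3 pairs). EFNB2 minus EPHB4 went the other way by -0.10, with groups that just missed overlapping (-0.457 against -0.466, exact permutation p = 0.1, 0.15 adjusted). Without PDBAG1 replicate 1 this difference was -0.06 (exact permutation p = 0.2). Without vehicle replicate 1, 2 or 3 it was -0.11, -0.08 or -0.12 (exact permutation p = 0.2 in each case). Leaving out PDBAG1 replicate 2 or 3 kept it at an exact permutation p of 0.1. EFNB1 minus EPHB2 differed by 0.06 (exact permutation p = 0.4, 0.4 adjusted), with overlapping groups. No pair could pass 0.05 in this design. In TPM, EFNA1 per 100 TPM of EPHA2 was 7.53 to 8.11 with vehicle and 12.9 to 14.6 with PDBAG1, so EPHA2 transcripts still exceeded those of EFNA1 in every library.

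The other genes of the family were scarce. Of the 8 ephrin and 14 Eph receptor genes listed, EFNB3, EPHA4, EPHA6 and EPHA10 were tested besides the members and none passed. EFNB3 was at 1.01 to 1.56 TPM with vehicle and 1.33 to 1.69 TPM with PDBAG1, EPHA4 at 2.27 to 2.88 and 1.95 to 2.63 TPM, EPHA10 at 1.16 to 1.24 and 0.93 to 1.22 TPM, and EPHA6 at 1.31 to 2.12 and 1.79 to 2.42 TPM (log2 fold change 0.29, limma adjusted p = 0.113). EFNA2, EPHA1, EPHA3, EPHA5, EPHA7, EPHB1 and EPHB6 stayed at or under 0.27 TPM in every library, and EPHA8 was not analysed here. All receptors outside the members together gave 5.25 to 5.98 TPM with vehicle and 5.47 to 6.72 TPM with PDBAG1.

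Downstream, 61 genes of Eph signalling were listed and 55 tested. Of these 16 rose, 2 fell and 37 did not pass at an adjusted p under 0.05, with a median log2 fold change of 0.11 against 0.03 for all genes tested. The share called was 32.7%, beside 37.6% of all genes (21.7% higher and 15.9% lower). Under median-of-ratios scaling the split was 12 higher and 4 lower, without vehicle replicate 3 it was 9 and 0, and without PDBAG1 replicate 2 it was 10 and 0.

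Genes that act on the receptor or ligand at the cell surface held the largest single change. MMP14, a membrane-bound metalloprotease known to cleave EphA2, was at 139.13, 128.99 and 134.59 TPM in the vehicle libraries and, with PDBAG1, at 260.49, 256.12 and 261.91 TPM. These groups lie far apart, and the log2 fold change was 0.95 with a standard error of 0.04 (adjusted p = 1.24e-09 by limma). NCSTN, which encodes nicastrin, a membrane glycoprotein, rose by 0.13 on the log2 scale (adjusted p = 0.0407 by limma). ADAM10, the protease known to shed ephrin-A ligands, averaged 59.7 ± 3.88 TPM with vehicle and, after PDBAG1, 57.3 ± 3.60 TPM (SD over 3 libraries) and did not pass.

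Of 43 receptor effectors tested, 10 rose, 2 fell and 31 did not pass. The share called was 27.9%, beside 37.6% of all genes (21.7% higher and 15.9% lower). AFDN, the gene of afadin, a junction scaffold that binds the tail of Eph receptors, rose by 0.43 on the log2 scale, from 17.1 ± 1.68 to 23.3 ± 1.26 TPM (SD over 3 libraries, adjusted p = 0.000622 by limma). The adaptor GRB7 rose by 0.37 and the exchange factor ARHGEF5 by 0.33, both from vehicle means under 5 TPM. RPS6KA3 and RPS6KA1, genes of RSK kinases, rose by 0.28 and 0.19 on the log2 scale (adjusted p = 0.00691 and 0.0269 by limma). AKT1 and ACP1, the latter a small phosphatase that acts on EphA2, were the 2 that fell, by 0.12 each (adjusted p = 0.0393 and 0.0304 by limma), and neither was called without vehicle replicate 3, without PDBAG1 replicate 1 or without PDBAG1 replicate 2. Among 6 genes of reverse signalling tested, 3 rose and 0 fell. This is 50% called, all higher, beside 21.7% of all genes called higher, in a list too short to read more from. RGS3, which links ephrin-B to G-protein signalling, rose by 0.35 on the log2 scale. SDCBP, the gene of syntenin, rose by 0.24 and PICK1 by 0.23 on the log2 scale. The latter 2 bind the tail of ephrin-B through PDZ domains.

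As a comparator, 21 other receptor tyrosine kinases could be tested, of which 6 rose, 2 fell and 13 did not pass, with a median log2 fold change of 0.15. The share called was 38.1%, near the 37.6% of all genes (21.7% higher and 15.9% lower). Their largest changes were those of CSF1R, a receptor of myeloid cells that was near the limit of expression (1.63 ± 0.289 and 3.21 ± 0.508 TPM, SD over 3 libraries), with 0.67, ROR1 with -0.57 and DDR1, a collagen receptor, with 0.44. Of the 6 Eph receptors tested, EPHB2 was the 1 that passed. Whether the Eph receptors differed from the other kinases was not tested.

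**Figure D4:**
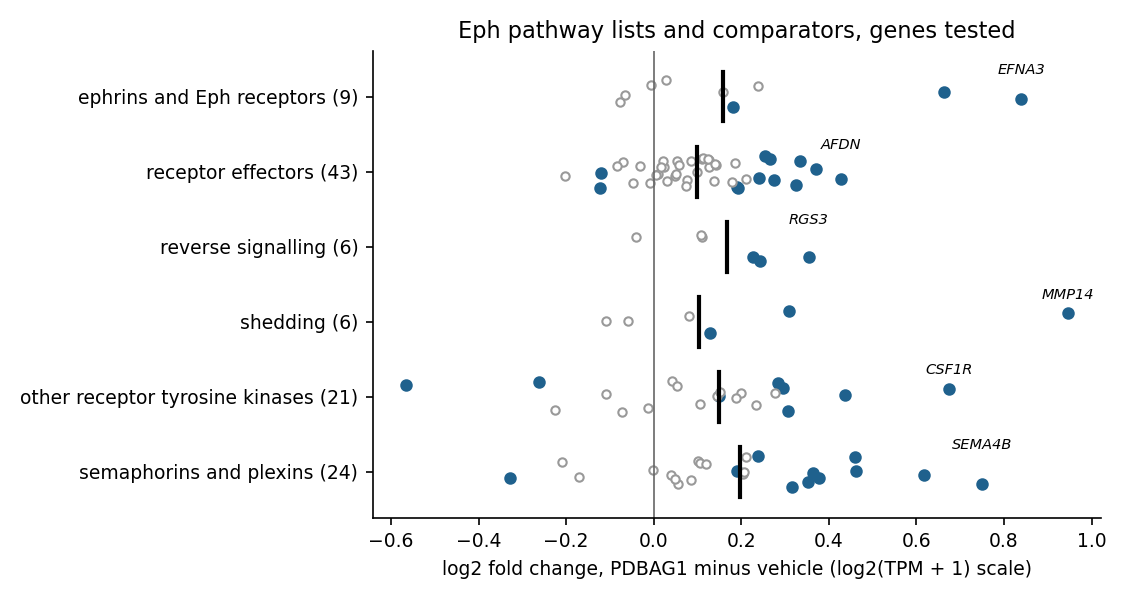
Log2 fold change of each gene tested (horizontal axis, log2(TPM + 1) scale) in the 10-gene family, 3 lists of Eph signalling genes and 2 comparator lists, with the number tested in parentheses, filled points for an adjusted p under 0.05, a black bar at each median and the most changed gene named. MMP14 at 0.95 and EFNA3 at 0.84 are the most changed genes of their lists, and the list medians lie between 0.10 and 0.20.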

How the data were processed

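The 6 files each hold TPM for 1 library, which the authors deposited rounded to 2 decimals and scaled to a common sum over 17631 genes. The submitters' processing notes name HISAT2 2.0.4, Bowtie2 2.2.5, RSEM 1.2.12 and the build GRCh38.p12, whereas the methods name GRCh38.p13 and FPKM. The annotation, the use of strand and any scaling between libraries are not given in the sources used here. Primary assembly coordinates are shared by these releases, and positions were taken from GENCODE v44 by Ensembl identifier.

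Groups came from the sample titles. Genes at 1 TPM or more in at least 3 libraries (12582) were tested as log2(TPM + 1) in R 4.3.3 with limma 3.58.1 (lmFit, eBayes with trend, two-sided), and calls used an adjusted p under 0.05, with and without a 1.5-fold limit. Standard errors and 95% intervals are those of the fit. The steps were tested on simulated data. Alternatives were 2 other scalings, a block on the replicate number, each library left out in turn, a pseudocount of 0.1, no filter and a fold limit of 2. Motifs were searched in RefSeq promoter windows of 250 bases. The members and lists were chosen with earlier results of these data known. Genes named were all members and other family genes, the 3 most changed called genes of each list, and tested genes within 100 kb of the chromosome 1 cluster. ADAM10, AKT1, ACP1, RPS6KA1 and RPS6KA3 were named after their values were seen. One gene that this rule names is not reported here.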

Additional observations from a re-analysis of the deposited data

How the results depend on the processing

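EFNA1 and EFNA3 kept their direction and their call under all 11 alternatives to the fit, with log2 fold changes of 0.59 to 0.71 and 0.73 to 0.96, and both stayed past 1.5-fold. At a fold limit of 2 the number of members called was 0. The number called without a fold limit ranged from 2 to 4. EFNB1 and EFNB2 passed under none of the alternatives. The direction of EFNA4 turned without vehicle replicate 3 and without PDBAG1 replicate 2, with a range over left-out libraries of -0.0385 to 0.0288. EPHB4 turned to -0.0113 with median-of-ratios scaling and to -0.047 with quantile normalization, and ranged from -0.006 to 0.0673 over left-out libraries. The change of EFNB1 minus EPHB2 was -0.0218 under quantile normalization. Of the Eph signalling genes, 9 to 17 were called with a library left out. In each of these cases the cause was not tested.

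In a fit with a replicate block, 2 members were called, EFNA1 and EFNA3, and EPHB2 was not (adjusted p = 0.0930). Of the Eph signalling genes, 12 were called higher and 0 lower in that fit. The deviations of libraries that share a number correlated at -0.207, 0.012 and -0.078, and no source says that a number marks a shared origin. The median log2 fold change of all genes tested was 0.03 as deposited, -0.01 under median-of-ratios scaling and -0.02 under quantile normalization. Depth is not recorded in TPM, so counting error could not be given and genes under the filter, EPHB3 among them, were tested in the fit without a filter only, where EPHB3 was not called.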

Other observations

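Semaphorins, plexins and neuropilins, another system of contact and guidance signals, were described in the same way as the Eph genes. Of 24 tested, 10 rose, 1 fell and 13 did not pass at an adjusted p under 0.05, with a median log2 fold change of 0.20. The share called was 45.8%, beside 37.6% of all genes tested (21.7% higher and 15.9% lower). SEMA4B, the gene of a membrane-bound semaphorin, was at 34.53, 33.30 and 30.14 TPM with vehicle and at 55.65, 55.09 and 55.90 TPM with PDBAG1, and rose by 0.75 on the log2 scale (adjusted p = 4.08e-07 by limma). PLXNB3, a receptor of the plexin-B class, rose from 4.39 ± 0.555 to 7.24 ± 0.350 TPM (SD over 3 libraries, 0.62 on the log2 scale), and SEMA3B, a secreted semaphorin, rose by 0.46 on the log2 scale. The 1 gene that fell was SEMA3E, chosen after its values were seen, with means of 3.60 ± 0.315 and 2.67 ± 0.361 TPM (SD over 3 libraries) and a log2 fold change of -0.33 (adjusted p = 0.0277 by limma). Whether these genes differed from the ephrins was not tested.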
